A study of Bos taurus with 6 samples.

Results

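Divergent gene starts are places where a gene read leftward and a gene read rightward begin side by side. They were taken here from the gene labels that the authors' files print beside sequential 3 kb windows of the bovine genome (build UMD v3.1). On chromosomes 1 to 29, a pair was kept where the last window of a minus-strand gene was followed by the first window of a plus-strand gene, either directly or after 1 window with no label. The rule used position and strand only and no measured value. It found 1847 pairs, 1483 of them directly adjacent and 364 with 1 unlabelled window between. These gave 4058 windows, made of 3694 gene start windows and 364 windows between, of 902984 windows in all. They hold 15.4% of the 24038 gene starts on these chromosomes, and the other 20344 gene starts served as the comparison.

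MIRA-Seq was run on genomic DNA of dermal fibroblast cultures from 3 Holstein heifers, numbered 1 to 3. Each animal was sampled at 5 and at 16 months of age and gave 1 library per age (n = 3 per age). All cultures were at passage 5, were grown in the same serum-supplemented DMEM medium and received no treatment and no LPS. The animals had been selected by the study as middle responders to LPS among a larger set, so they do not sample the whole range of the herd.

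Neighbouring genes that start back to back often share a promoter, and such bidirectional promoters are common among genes that most cells use, such as those of DNA repair, translation and mitochondria. Many of them lie in CpG islands, stretches rich in CpG sites that are usually free of DNA methylation, while the CpG sites of gene bodies are often methylated. MIRA captures DNA fragments on beads through methyl-binding proteins, so the read count of a window rises both with its methylation and with how many CpG sites it holds. The values below are therefore recovery of methylated DNA and not a methylation level.

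Depth was 19.9 to 43.6 M counted reads per library, and levels are given as CPM, counts per M reads counted over all windows. The divergent windows took 0.377 to 0.415% of the reads in the libraries of animals 1 and 2, and 0.265 and 0.283% in those of animal 3. Over the divergent windows, libraries of the same animal correlated at a Spearman rho of 0.878 to 0.923, and libraries of different animals at 0.694 to 0.950 (4058 windows that share libraries, given as a description).

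A 3 kb window with 1 label cannot show that 2 genes share a promoter, and the pairs are neighbours at that resolution. Of the 1140 pairs with no gene of a provisional LOC name, 1039 had both symbols among the protein-coding genes of RefSeq (ARS-UCD2.0). Of these, 1035 lay on a single chromosome there and 977 (94.0%) were next to each other. By the median, the level of the starts varied little with their spacing. Their median window mean was 0.236 CPM in adjacent pairs and 0.261 CPM in pairs with 1 window between. Just outside the rule, 282 pairs had 2 unlabelled windows between, and their starts had a median of 0.257 CPM. A mean of at least 1 CPM was found at 19.4% of starts in adjacent pairs. With 1 and 2 windows between, the share was 21.7 and 21.8%. The pairs were unevenly spread over chromosomes. On chromosome 19, 23.1% of gene starts were divergent, followed by 22.3% on 18 and 21.1% on 17, against 10.4% on 15 and 10.9% on 14, with chromosome 9 lowest.

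Most divergent windows yielded little methylated DNA. The median window had a mean of 0.237 CPM over the 6 libraries, the upper quartile was 0.647 CPM, and the 90th percentile was 2.42 CPM. The median divergent window held 3 reads (5 months) and 10 reads (16 months) in animal 1, 10 and 3 in animal 2, and 8 and 9 in animal 3. By their means over the libraries, both starts of a pair were under 1 CPM in 1280 of 1847 pairs (69.3%), and every window was under 0.5 CPM in 1000 pairs (54.1%). Of the 4058 windows, 11 held no read in any library.

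By the median over all members, divergent windows and other gene starts were recovered alike. The median CPM of divergent windows was 0.151, 0.311 and 0.214 in the 5-month libraries and 0.229, 0.139 and 0.303 in the 16-month libraries of animals 1, 2 and 3. The median of other gene starts was the same number of reads in 5 of 6 libraries and higher, at 0.336 CPM, in the 16-month library of animal 3. The log2 ratio of the medians averaged -0.025, which rested on that library alone (exact two-sided sign-flip test over 3 animals, p = 1.0). It depended on the provisional labels. With LOC genes left out of both classes it was -0.21, and divergent windows were lower in 5 of 6 libraries (exact sign-flip p = 0.25). With 3 animals the smallest p that this test can give is 0.25, so no comparison of levels here could pass 0.05. Of this kind, 4 planned comparisons were made, and a p of 0.25 became 0.333 after Benjamini-Hochberg adjustment over them.

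The upper end of the range differed more. Mean CPM of divergent windows was 1.01, 1.02 and 0.654 in the 5-month libraries and 0.941, 0.930 and 0.698 in the 16-month libraries. For other gene starts it was 1.24, 1.19 and 0.801, then 1.16, 1.21 and 0.843. Divergent windows were lower in every library, by 0.29 on the log2 scale (exact sign-flip p = 0.25), and by -0.30, -0.30 and -0.28 in animals 1 to 3. On average 19.1% of divergent windows reached 1 CPM in a library, against 21.3% of other gene starts. On the mean log2(CPM + 0.5) scale divergent windows were below the other starts of their own chromosome on 22 of 29 chromosomes. These values include the 364 windows between, which are no gene starts and were low. The 3694 divergent start windows alone averaged 0.908 CPM, against 0.876 CPM for all divergent windows and 1.07 CPM for other gene starts. They were still lower than other gene starts in every library, and 19.8% of them reached 1 CPM.

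**Figure D1:**
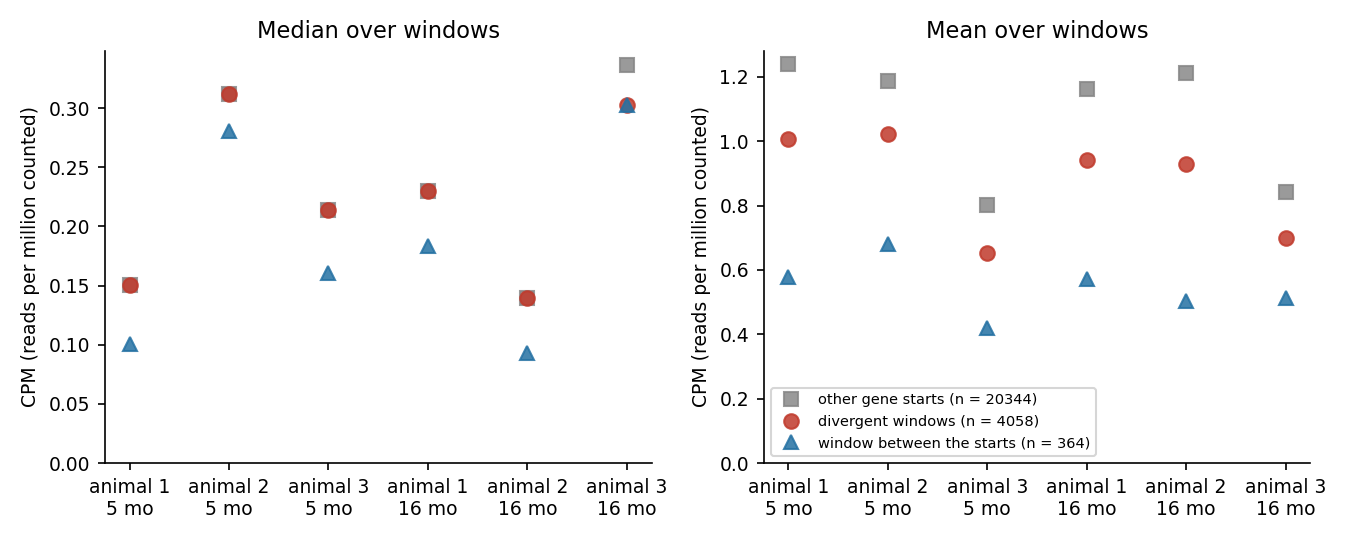
Median (left) and mean (right) CPM over windows in each of the 6 libraries, ordered by age and animal, for divergent windows, other gene starts and the unlabelled window between the starts. The medians of divergent windows and other gene starts coincide in 5 of 6 libraries, while the means of divergent windows lie below those of other gene starts in all 6.

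What lay upstream of the other gene starts changed the comparison. Of the other starts, 14598 had no labelled window within 3 windows upstream, and 5746 had at least 1. Against starts with a label near by, divergent windows were lower in 6 of 6 libraries, with an average log2 ratio of medians of -0.48 (exact sign-flip p = 0.25). Against starts with nothing labelled near by, they were slightly higher, at 0.08 (exact sign-flip p = 0.25), with the same median in 3 libraries and a higher one in 3. By mean CPM they were lower than those starts too, by 0.14 on the log2 scale in 6 of 6 libraries. Without the windows between, the divergent start windows were not lower in the 5-month library of animal 2 (1.06 against 1.05 CPM). Against all windows that are no gene start, divergent windows were higher by the median, at 0.71, and lower by the mean in 4 of 6 libraries.

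The lowest recovery in a divergent locus lay between the starts. In the 364 pairs with an unlabelled window between, that window had a median of 0.10, 0.280 and 0.161 CPM in the 5-month libraries and 0.184, 0.0929 and 0.303 CPM in the 16-month libraries. The start windows beside it had 0.151, 0.343 and 0.241 CPM, then 0.252, 0.163 and 0.336 CPM. The window between was lower in 6 of 6 libraries, with a mean log2 ratio of -0.48 and values of -0.52, -0.55 and -0.37 in the 3 animals (exact sign-flip p = 0.25, adjusted 0.333). Only 41 of the 364 windows (11.3%) had at least 1 CPM in 3 libraries, against 167 of their 728 start windows (22.9%). A drop upstream of a start was not peculiar to divergent loci. At other starts with nothing labelled near by, the window upstream was lower than the start by 0.32 on the log2 scale, also in 6 of 6 libraries. Between those upstream windows and the windows between divergent starts, the direction depended on the measure. The log2 ratio of the window between to the upstream window was 0.06 by the median (exact sign-flip p = 0.5) and -0.26 by the mean, where the window between was lower in 6 of 6 libraries.

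Recovery climbed on both sides of a divergent locus. The minus-strand start had a median of 0.216 CPM ± 0.0744 (SD over 6 libraries), the next window into that gene 0.304 ± 0.103, and the one after it 0.337 ± 0.132. On the other side, the plus-strand start had 0.249 ± 0.0950, followed by 0.323 ± 0.117 and 0.342 ± 0.131. The SD holds differences of depth and animal that all positions of a library share. Against the windows 5 to 10 positions away on both sides, the starts were lower in 6 of 6 libraries, with a mean log2 ratio of medians of -0.42 and values of -0.40, -0.40 and -0.47 in the 3 animals (exact sign-flip p = 0.25, adjusted 0.333).

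The profile of other gene starts had another shape. Their start window was at 0.230 CPM ± 0.0808, the same as the next window downstream, and the window upstream was lower at 0.191 ± 0.0875. Against their own windows 5 to 10 positions downstream, other starts had the same median in 5 of 6 libraries and a higher one in the 5-month library of animal 1. By the mean they were lower in 6 of 6 libraries, with a log2 ratio of -0.13, where divergent starts had -0.87 against their flanks. The contrast lay in the flanks. Windows 5 to 10 positions from divergent starts were above the downstream flanks of other starts in 6 of 6 libraries, by 0.52 on the log2 scale (exact sign-flip p = 0.25). Labels were also denser there, with 73.7 and 76.8% of windows labelled at 5 positions from a divergent start and 67.9% at 5 positions downstream of other starts. The part of label density in the levels was not tested.

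**Figure D2:**
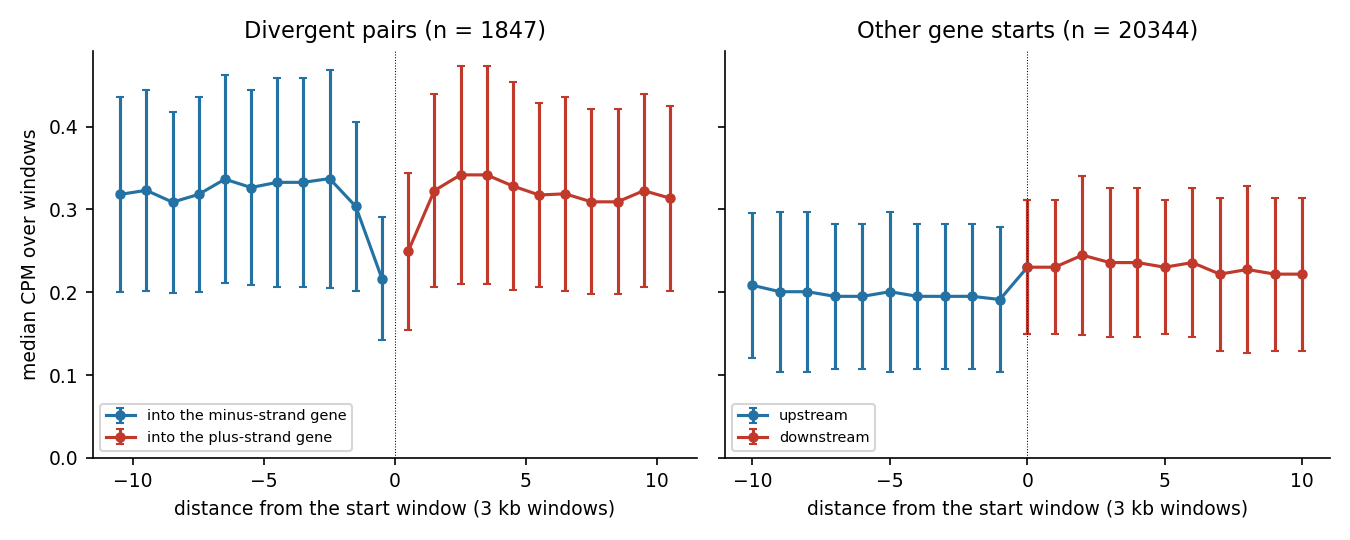
Median CPM by distance from the start window, in 3 kb windows, for divergent pairs (left, into the minus-strand gene to the left and into the plus-strand gene to the right) and for other gene starts (right, upstream and downstream along the gene). Points are means of the 6 library medians and bars are their SD, and the window between starts is not drawn. Divergent loci dip to 0.216 and 0.249 CPM at the starts from about 0.3 CPM in the flanks, while other starts sit at the level of their downstream windows.

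The 2 sides of adjacent pairs were not equal. The plus-strand start had a median of 0.151, 0.343 and 0.241 CPM in the 5-month libraries and 0.252, 0.139 and 0.370 CPM in the 16-month libraries. The minus-strand start had 0.151, 0.280 and 0.187 CPM, then 0.207, 0.139 and 0.269 CPM. The plus start was higher in 4 libraries and equal in 2, with a mean log2 ratio of 0.23 (exact sign-flip p = 0.25). This comparison was added after the levels were seen. In pairs with 1 window between, the ratio was -0.13 (exact sign-flip p = 0.5), lower for the plus start in 5 of 6 libraries. For other gene starts on the plus against the minus strand it was 0.02.

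The files' own coding numbers bear on this difference. Beside a window the files give the number of a coding segment of the labelled gene, and in 99.7% of 16978 genes with several numbered windows these numbers count up along the strand. In adjacent pairs, 252 of 1483 plus starts (17.0%) carried a number of 2 or more, so that an earlier coding segment of that gene lay in a window before it, one labelled with the minus-strand gene. In pairs with an unlabelled window between, 0 of 364 plus starts did. Other plus-strand starts split the same way, with 126 of 1473 (8.55%) where the window before was labelled and 0 of 8799 where it was not. Recovery rose with the number. Plus starts of adjacent pairs with no number had a median window mean of 0.207 CPM, those with number 1 had 0.255 CPM, and those with 2 or more had 0.648 CPM. The minus starts of these pairs had 0.160, 0.200 and 0.356 CPM in the same order. Numbers are not comparable between strands, because 420 of the 1483 minus starts carried 2 or more, and on that strand an earlier segment can lie in the same window. With starts of number 1 only, the plus start was above the minus start by 0.42 on the log2 scale in the median and 0.31 in the mean, in 6 of 6 libraries. That choice leaves out the better recovered windows of both strands, 252 plus and 420 minus starts, and does so unequally. The part of the label placement in the difference was not tested.

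Of the 2 starts of a pair, both had a mean of at least 1 CPM in 166 pairs (8.99%). The minus start alone did in 165 and the plus start alone in 236, together 21.7% of pairs. No count expected from unrelated starts was computed, so these counts do not say whether partners differ more or less than such starts. Across the 1847 pairs, the mean CPM of the minus and the plus start had a Spearman rho of 0.405, and between 0.332 and 0.389 within single libraries. The pairs share libraries and local CpG content, so this is a description. For other starts with nothing labelled near by, the start and its downstream neighbour gave 0.499, and the start and its upstream neighbour 0.430. In 200 pairs (10.8%), 1 start had at least 1 CPM and the other was more than 10-fold lower. The plus start was the high one in 124 of these and the minus start in 76.

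**Figure D3:**
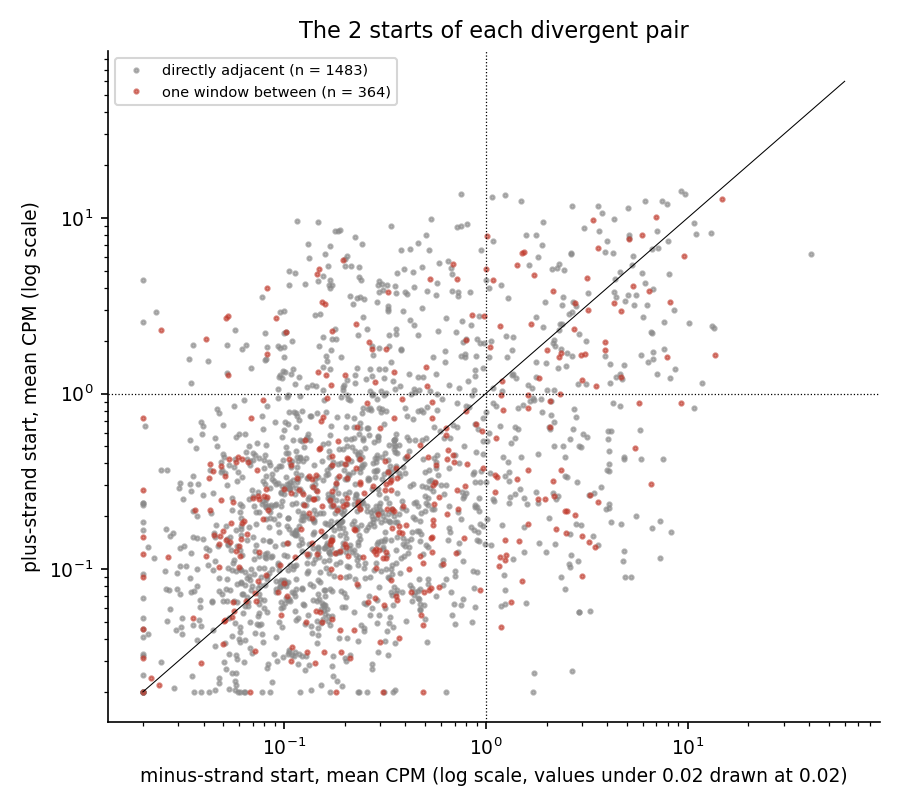
Mean CPM over 6 libraries of the minus-strand start (horizontal) and the plus-strand start (vertical) of each of the 1847 pairs, on log axes with values under 0.02 CPM drawn at 0.02. Dotted lines mark 1 CPM and the solid line equal values. Most pairs lie in the lower left field, where 1280 pairs had both starts under 1 CPM, and those above 1 CPM on only 1 axis (165 and 236 pairs) outnumber the 166 pairs above it on both.

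The most recovered divergent window was the start of LMF2, which encodes a lipase maturation factor, at chr5:120020506-120023505. It had 52.9, 33.9 and 47.3 CPM in the 5-month libraries of animals 1, 2 and 3, and 29.8, 20.3 and 60.7 CPM in the 16-month libraries. Its partner NCAPH2, a subunit of condensin II, was far lower, with a mean of 6.24 CPM ± 1.79 (SD, n = 6). No other divergent window came near. The next 9 of the 10 highest had means of 13.2 to 14.7 CPM. In 8 of the 10, the libraries of animal 3 held the lowest values, with LMF2 and FBXW5 as exceptions. That was not particular to these windows. Mean CPM was lowest in the libraries of animal 3 over all divergent windows (0.654 and 0.698) and over other gene starts (0.801 and 0.843).

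Some of these loci were recovered on both sides. ATP4B, the beta subunit of the gastric proton pump, had a mean of 14.7 CPM ± 6.98 and GRK1, the rhodopsin kinase, 12.9 ± 5.23, with a dip to 2.88 CPM ± 0.671 in the window between. The dip was present in each library, the window between holding 1.98 to 3.86 CPM where the starts held 5.61 to 22.2 CPM. C8G, a chain of complement component C8, had 9.30 CPM ± 4.23 and FBXW5, an F-box protein, 14.2 ± 6.15. COBRA1, a subunit of the negative elongation factor, had 9.69 ± 3.22 beside FAM166A with 13.7 ± 4.88. The FAM166A window carried coding number 3, so earlier coding segments of that gene lay before it.

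Others were recovered on 1 side. MZT2B, a protein of the gamma-tubulin complex, had 0.754 CPM ± 0.255 next to SMPD4, a neutral sphingomyelinase, with 13.6 ± 3.45. LSM14B had 1.07 ± 0.260 next to HRH3, a histamine receptor, with 13.2 ± 4.48. CRIP1, a LIM domain protein, had 1.24 ± 0.661 and C21H14orf80 13.6 ± 5.36. The minus start was the high one for AKT1, the kinase of insulin and growth factor signalling, with 13.5 ± 5.65 against 2.37 ± 1.03 at ZBTB42. RPUSD1 had 13.2 ± 4.95 against 2.42 ± 0.810 at CHTF18, a factor of sister chromatid cohesion. LOC618939 had 13.6 ± 6.11, the window between 5.15 ± 2.26, and COX19, an assembly factor of cytochrome c oxidase, 1.67 ± 0.440. In each of these the lower start was below the higher one in 6 of 6 libraries. The windows of SMPD4 and C21H14orf80 carried coding number 2, and that of HRH3 carried 1. For SMPD4 and C21H14orf80 an earlier coding segment thus lay in a window before, so their high windows may not hold the first segment.

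At the other end, 4 of the 5 lowest pairs were made of LOC genes with at most 1 read in a library. The CpG content and mappability of these windows were not analysed here.

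Of 30 pairs listed from general knowledge as bidirectional or adjacent divergent genes, 21 met the rule, all of them directly adjacent. Their 42 windows were low as a group, with a median window mean of 0.186 CPM against 0.237 CPM over all divergent windows. At least 1 CPM was reached by 7 of the 42 (16.7%), against 19.0% of divergent windows and 21.5% of other gene starts. Of the 9 others, some had starts too far apart. The starts of ATM-NPAT, COL4A1-COL4A2, COL4A3-COL4A4 and SIRT3-PSMD13 were labelled 7 to 24 windows apart. COL4A5-COL4A6 is on X, RANBP1 and TRMT2A carried the same strand, and FEN1-TMEM258 had only 1 gene labelled.

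Among the DNA repair and tumour suppressor genes of these pairs, the highest were NTHL1, a base excision repair glycosylase, and TSC2, a brake on mTOR. NTHL1 had 3.01, 2.93 and 1.34 CPM in the 5-month libraries and 2.34, 2.60 and 1.28 CPM in the 16-month libraries. TSC2 had 6.88, 6.63 and 3.91 CPM, then 5.03, 6.55 and 2.22 CPM, so that TSC2 was above NTHL1 in every library. The TSC2 window carried coding number 2, so an earlier coding segment of TSC2 lay in a window before it. Others were low. BRCA1, a recombination repair gene, had a mean of 0.0372 CPM and its neighbour NBR1, an autophagy receptor, 0.0806. BRCA2 had 0.0634 CPM, while ZAR1L beside it had 0.920. UNG, the uracil glycosylase, had 0.211 and ALKBH2, a DNA demethylase of alkylation damage, 0.102. MUTYH had 0.365 CPM and TOE1 0.163, and PMS2, a mismatch repair gene, had 0.196 CPM against 1.04 at AIMP2, a scaffold of the tRNA synthetase complex. ZAR1L (16 to 38 reads) was above BRCA2 (1 to 3 reads), and AIMP2 (13 to 51 reads) above PMS2 (3 to 11 reads), in 6 of 6 libraries. BRCA1 had 0 to 3 reads in a library and NBR1 0 to 7.

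The highest of the 21 pairs was SURF1-SURF2 of the surfeit housekeeping gene cluster. SURF1, an assembly factor of cytochrome c oxidase, had 7.88, 8.32 and 4.63 CPM in the 5-month libraries and 7.83, 10.3 and 3.23 CPM in the 16-month libraries. SURF2 had 9.39, 12 and 3.51 CPM, then 9.91, 11.3 and 4.10 CPM. SURF2 was higher in 5 libraries and lower in animal 3 at 5 months. Its window carried coding number 5, so earlier coding segments of SURF2 lay before it. SARS2, the mitochondrial seryl-tRNA synthetase, had 0.236 CPM ± 0.0807 beside MRPS12, a mitochondrial ribosomal protein, with 4.60 ± 1.80, and their ranges over the libraries did not overlap. TAP1, the peptide transporter of antigen presentation, had 1.24 CPM ± 0.404 beside the immunoproteasome subunit PSMB9 with 0.339 ± 0.200. The heat shock genes HSPD1 and HSPE1 had 0.141 and 0.163 CPM, and the purine synthesis genes PPAT and PAICS 0.0853 and 0.144.

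Gene groups differed in how often they started divergently. The list of the mitochondrial ribosome and respiratory chain was made by symbol. It also took in the TIMM and TOMM genes of protein import and any COX symbol, such as COX19. Of its 190 labelled starts, 74 (38.9%) were divergent, against 15.4% of all gene starts. For DNA repair and replication it was 24 of 66 (36.4%), for aminoacyl-tRNA synthetases 13 of 37 (35.1%), for the proteasome 11 of 40 (27.5%) and for histones 13 of 28 (46.4%). Zinc finger genes, at 48 of 318 (15.1%), were at the share of all starts. Homeobox and other developmental factors were at 18 of 144 (12.5%), and solute carriers at 42 of 332 (12.7%). These shares describe the labels alone, and they were not tested. The reads of near-identical copies, as in the histone family, may be split between windows, so their levels are uncertain.

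In the mitochondrial and repair groups, the medians of divergent and other starts were close. The 74 divergent mitochondrial starts had a median window mean of 0.230 CPM, against 0.214 CPM in the 116 other starts of the group. A mean of at least 1 CPM was found in 15 of the 74 (20.3%) and in 14 of the 116 (12.1%). The 74 ran from 0.0216 CPM at NDUFB3 to 8.38 CPM at NDUFA11, both subunits of respiratory complex I. NDUFA11 was high in every library (4.71 to 11.6 CPM) while its partner VMAC stayed at 0.10 to 0.336 CPM. The NDUFA11 window carried coding number 2, so an earlier coding segment of that gene lay in a window before it. DNA repair and replication starts had 0.277 CPM against 0.249 CPM in their other starts, with MCM7 of the replicative helicase at the top (9.19 CPM ± 1.37) beside AP4M1 at 0.803 ± 0.215. The MCM7 window carried coding number 4, so earlier coding segments of MCM7 lay before it.

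Solute carriers showed a gap in both measures. Of the 42 divergent solute carrier starts, 6 (14.3%) reached 1 CPM, against 93 of 290 (32.1%) other solute carrier starts, and the medians were 0.269 and 0.375 CPM. The highest of the 6 was SLC35A4 (7.74 CPM ± 2.41), whose partner APBB3 had 0.224 ± 0.132. Divergent histone starts had the lowest median of the groups, 0.0653 CPM against 0.140 CPM in the other histone starts, but the shares with at least 1 CPM were 2 of 13 (15.4%) and 2 of 15 (13.3%). HIST3H2BB, an H2B gene, had 1.72 CPM ± 0.882, while HIST3H2A beside it had 0.0256 ± 0.0364. No tRNA synthetase start in a divergent pair had a mean of 1 CPM over the libraries (0 of 13), against 4 of 24 other starts. The highest was MARS with a mean of 0.796 CPM ± 0.541, above 1 CPM in 3 libraries.

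Developmental factors were the group with the highest median among divergent starts, 0.643 CPM, against 0.457 CPM in their other starts, while the shares with at least 1 CPM were 33.3% and 37.3%. HOXD12, a homeobox gene of limb patterning, was highest with 4.68 CPM ± 2.12, and LOC100849025 beside it had 0.181 ± 0.0874. FOXA3, a liver forkhead factor, was lowest with 0.0637 ± 0.0371, beside SYMPK with 1.25 ± 0.365. In the proteasome group, PSMB11, the thymus-specific subunit, had 8.27 CPM ± 2.73, and its partner PSMB5, the subunit it replaces, had 0.162 ± 0.110. Zinc finger starts had the same median in both classes, 0.238 CPM, with ZNF319 at the top (5.78 ± 2.71).

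The ages were compared within animals with edgeR's quasi-likelihood test, over the 104658 windows of the genome with at least 1 CPM in at least 3 libraries. The animal was kept as a block. Calls needed a 2-fold change or more and a false discovery rate (FDR) under 0.1. Values for this comparison are CPM over the windows tested, scaled by TMM factors, and positive log2 fold changes are higher in the 5-month cultures. Of the 4058 divergent windows, 795 (19.6%) were tested, from 590 pairs. They are the well recovered minority and do not stand for all members. Of them, 5 were called (0.629%), where 0.185% of all windows tested and 18 of 4483 other gene starts (0.402%) were called. At an unadjusted p under 0.05 there were 66 (8.30%), beside 401 of 4483 other gene starts (8.94%) and a background of 7.1%. The calls were 2 higher in 5-month cultures (background 0.105%) and 3 higher in 16-month cultures (background 0.0803%), all in adjacent pairs.

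LHX2 encodes a LIM homeobox factor of brain, eye and hair follicle development. The window labelled as its start, at chr11:95126785-95129784, carried coding number 2. An earlier coding segment of LHX2 therefore lay in a window before it, one labelled with the minus-strand gene. The window had 3.31, 4.61 and 6.24 CPM at 5 months in animals 1, 2 and 3, and 2.53, 1.93 and 1.63 CPM at 16 months. The ages did not overlap, and animal 1 moved least. The log2 fold change was 1.15 (SE 0.24, edgeR quasi-likelihood FDR 0.00541). The divergent partner, LOC100848819, had 3.26, 4.47 and 2.25 CPM, then 2.41, 2.82 and 2.13 CPM, a log2 fold change of 0.41 (FDR 0.795).

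DDX49 encodes a DEAD-box RNA helicase. Its start at chr7:4221046-4224045 had 4.0, 3.18 and 3.51 CPM at 5 months and 1.48, 0.941 and 2.79 CPM at 16 months. The ages did not overlap, with a log2 fold change of 1.13 (SE 0.26, edgeR FDR 0.0245). The start of COPE, a subunit of the COPI coat, is its partner and had a log2 fold change of 0.33 (FDR 0.962).

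LOC100296148, beside the zinc finger gene ZNF503, had the lowest FDR of the windows higher at 16 months. Its window at chr28:31321565-31324564 also carried coding number 2, so an earlier coding segment lay in a window before it, labelled with the minus-strand gene. The LOC100296148 window had 1.33, 2.72 and 0.520 CPM at 5 months and 3.56, 4.76 and 2.34 CPM at 16 months. It rose in each animal, although the ages overlapped, as animal 2 at 5 months was above animal 3 at 16 months. The log2 fold change was -1.33 (SE 0.27, edgeR FDR 0.00500). ZNF503 had 0.0311 to 0.0803 CPM over all windows in every library and was not tested.

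MEX3B encodes an RNA-binding protein. Its start at chr21:24334763-24337762 had 1.20, 2.02 and 3.21 CPM at 5 months and 5.06, 4.71 and 3.66 CPM at 16 months. The ages did not overlap, but animal 3 differed by only -0.17 on the log2 scale. The log2 fold change was -1.12 (SE 0.24, edgeR FDR 0.00985). Its partner LOC100847754 was too low to be tested, at a mean of 0.181 CPM.

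TMEM151A encodes a membrane protein and starts beside YIF1A, a factor of traffic between the endoplasmic reticulum and the Golgi. Its window at chr29:44990919-44993918 had 1.47, 1.82 and 6.84 CPM at 5 months and 5.18, 7.88 and 4.17 CPM at 16 months. Animals 1 and 2 rose with age, animal 3 fell, and the ages overlapped. The log2 fold change of -1.01 (SE 0.24, edgeR FDR 0.0356) is therefore not a change shared by the 3 animals.

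**Figure D4:**
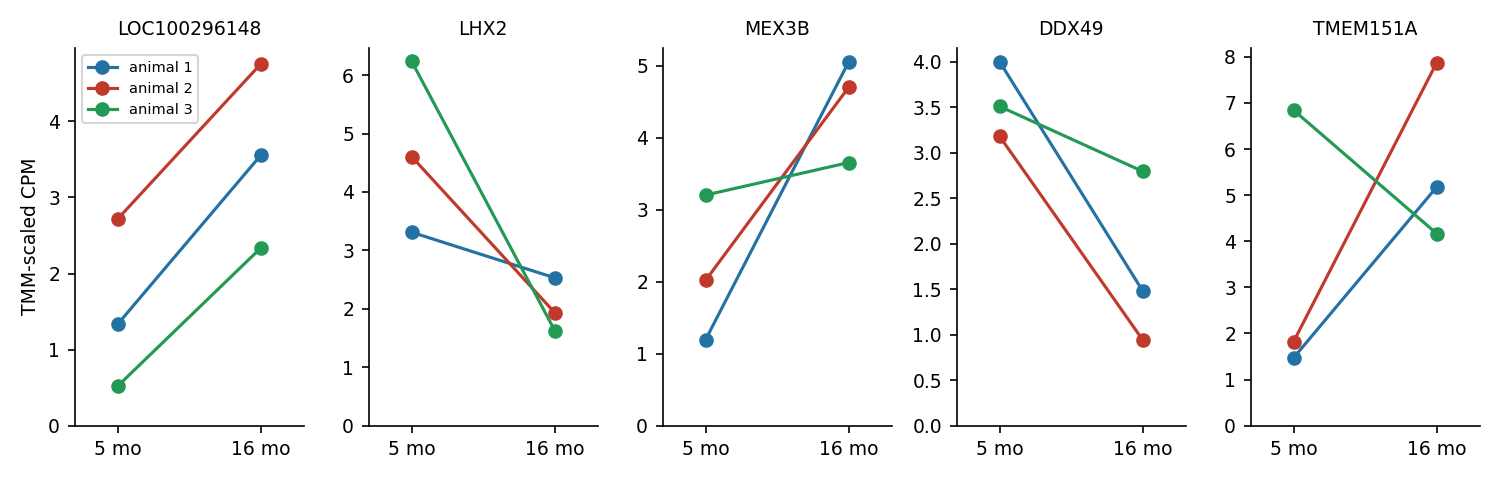
TMM-scaled CPM of the 5 called divergent windows in each animal at 5 and 16 months, with a line per animal. LHX2 and DDX49 fell and LOC100296148 and MEX3B rose from 5 to 16 months in all 3 animals, while animal 3 moved against the other 2 at TMEM151A.

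These calls depended on the animals and on the fit. Without animal 1 the only call among divergent windows was LHX2, without animal 2 the only one was LOC100296148, and without animal 3 there were 18. Calls without animal 3 rose over the whole genome. They were 18 of 810 divergent windows, 101 of 4551 other gene starts and 1278 of 103419 windows in all. LHX2 was not called there (log2 fold change 0.81, edgeR FDR 0.109). DESeq2, the fit with no block and that with TMM factors from all windows called 15, 0 and 25 windows in all. None of the 5 was among them. The log2 fold changes of the 5 kept their direction in these fits, with 1.17, 1.20 and 1.19 for LHX2, and -1.40, -1.20 and -1.43 for LOC100296148. TMEM151A ran from -0.77 with no block to -1.13 in DESeq2.

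Short of the threshold, 5 further windows had the lowest p. ATP5D, a subunit of ATP synthase, had 4.87, 5.53 and 3.90 CPM at 5 months and 2.53, 3.52 and 2.03 CPM at 16 months. The ages did not overlap, and its log2 fold change of 0.84 (edgeR FDR 0.0746) was under 2-fold. LOC618938 had a log2 fold change of -1.23 (FDR 0.153), the kinase gene STK16 0.87 (FDR 0.172), and the microRNA gene MIR2413 0.65 (FDR 0.25). The unlabelled window between LOC100848950 and TFAP2A, a factor of neural crest and skin, had -0.70 (FDR 0.243) and was higher at 16 months in each animal.

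The tested divergent windows as a whole leaned to the 5-month cultures. Of the 795, 478 (60.1%) had a positive log2 fold change and the median was 0.07, against 51.6% and 0.01 in other gene starts and 52.6% and 0.02 in all windows tested. The median difference of divergent windows exceeded that of other gene starts by 0.03, 0.08 and 0.03 in animals 1, 2 and 3 on the log2(CPM + 0.5) scale, an average of 0.05 (exact sign-flip p = 0.25, adjusted 0.333). Over all windows with a count, tested or not, it was 0.01 (exact sign-flip p = 1.0). Across the 174 pairs with both starts tested, 97 (55.7%) had both starts moving in the same direction, and the log2 fold changes had a Spearman rho of 0.129. In no pair were both starts called.

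**Figure D5:**
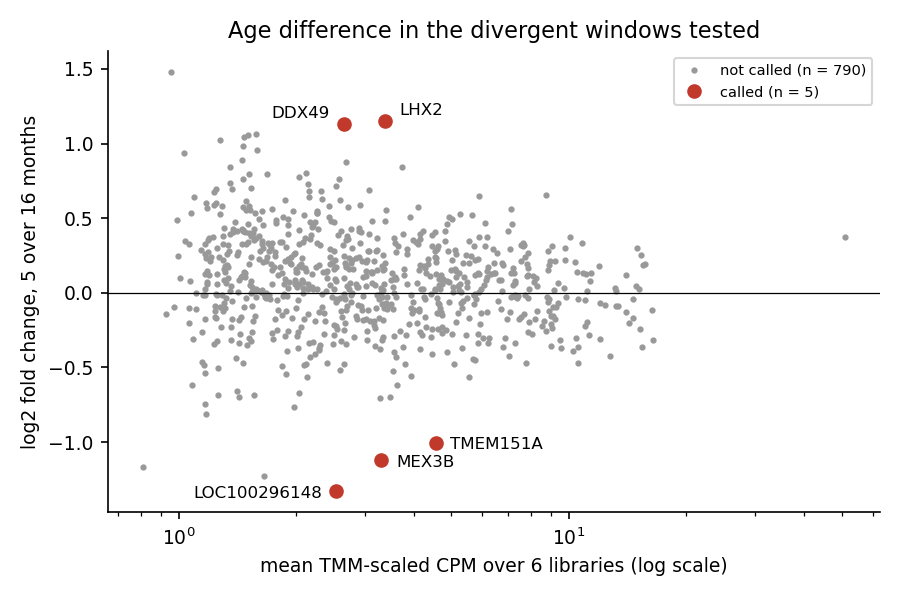
Log2 fold change of 5-month over 16-month cultures against mean TMM-scaled CPM (log axis) for the 795 divergent windows tested, with the 5 called windows in red and named. Of the 795, 478 lie above 0, and the widest scatter is at the low end of the CPM axis.

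Gene groups gave 1 call among them, LHX2 in the developmental factors (6 windows tested, median log2 fold change 0.10). The 14 tested mitochondrial windows had a median of 0.12 and ran from -0.26 to 0.84 (ATP5D), with 1 at an unadjusted p under 0.05 and 0 called by edgeR's quasi-likelihood test or by DESeq2. The 9 zinc finger windows had a median of -0.26, with 0 at an unadjusted p under 0.05. DNA repair (3 tested), proteasome (2), tRNA synthetases (1), histones (2) and solute carriers (6) had too few tested windows to describe beyond their ranges, which ran from -0.77 to 0.70 together.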

How the data were processed

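The samples were 6 MIRA-Seq libraries, 1 per heifer and age, with groups and animals taken from the sample labels. A pulldown of DNA gives no expression, so the cell type was not checked against markers. The authors removed short and low-quality reads, aligned the rest to UMD v3.1 with NextGENe 2.3.4 and deposited raw read counts of 3 kb windows. The deposited files also give the highest and the mean depth of coverage of each window, a signal not used here. How PCR copies and multi-mapping reads were handled was not given in the sources used here. Copies were not removed, so counts are not independent molecules. With 1 library per animal and age, the spread between cultures cannot be told apart from that between libraries. The age p-values use this spread pooled mainly over all windows tested, and not that of each window alone.

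The members, gene lists, textbook pairs and tests were chosen with earlier results of these data known. Each window carries 1 gene label, and a few divergent windows were slightly longer than 3 kb. Levels were CPM over all windows, summarised per library by the median, which moves in whole reads, or by the mean, and compared within animals by exact two-sided sign-flip tests. For age, a filter of 1 CPM in 3 or more libraries was applied before testing in R 4.3.3 with edgeR 4.0.16 (TMM factors, animal as block, quasi-likelihood test, Benjamini-Hochberg adjustment over all windows tested). With 2 residual degrees of freedom per window, the spread came mainly from all windows together (prior degrees of freedom 178). Standard errors were obtained from the F statistics. The pairing by animal was checked on deviations from the mean of each age, which correlated at 0.290, 0.544 and 0.710 for animals 1 to 3. DESeq2 1.42.0, the likelihood-ratio test, other scalings, filters and members, no block, and leaving out each animal were alternatives. The comparison of plus and minus starts, 8 other alternatives and the comparison with windows upstream of other starts were added after the data were seen. Python 3.11.15 with numpy 2.4.6, pandas 2.3.3, scipy 1.17.1 and matplotlib 3.10.9 was used for the rest.

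Named windows were those called or with the 10 lowest p by age, the 10 pairs with the highest window, the 5 pairs with the lowest mean, the textbook pairs, and the highest and lowest member of each of 8 lists of gene symbols. Positions are those of the files. RefSeq was used for names and neighbours only, and no sequence of the windows was used here. A few named pairs are not reported here.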

Additional observations from a re-analysis of the deposited data

Results flagged for a closer look

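The same rule on chromosome X, which the comparisons above leave out, found 65 pairs with 143 windows. Their median CPM was 0.393 on average over the 6 libraries, from 0.232 to 0.572, where the divergent windows of chromosomes 1 to 29 had 0.225, from 0.139 to 0.311. It is given here because it lies outside the measured set. The difference between X and the other chromosomes was not tested. No level of the other gene starts of X is given here, so the value cannot be told apart from a level of X in general.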

How the results depend on the processing

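The number of divergent windows called by age was 5, and it stayed at 4 to 6 with the likelihood-ratio test, DESeq2's size factors, library size only, no fold threshold, adjacent pairs only and start windows only. It was 0 with the DESeq2 Wald test (20 at an unadjusted p under 0.05), 0 with TMM factors from all windows (21), 0 with no CPM filter (95 of 4047 tested) and 0 with no replicate block (13). Calls over all windows fell in these fits too, from 194 to 15, 25, 2 and 0. At other gene starts they fell from 18 to 1, 1, 0 and 0. With a CPM of at least 0.5, 2 divergent windows of 1262 tested were called, beside 6 other gene starts and 96 windows in all. The number was 2 without LOC genes (516 tested), and 0 in pairs with 1 window between (208 tested, 14 at an unadjusted p under 0.05). Leaving out each animal gave 1 to 18 calls, with 18 without animal 3. Over all windows tested, 14, 68 and 1278 were called without animals 1, 2 and 3. Of the 5 calls 2 were higher at 5 months, and of the 4 with library size only 1 was, DDX49 being the call lost. The cause was not tested. The average age shift stayed positive in 13 alternatives, at 0.02 with no replicate block. It was 0.01 in pairs with 1 window between, where animals 1 and 3 were at -0.02 and -0.03, and 0.01 over all windows with a count, where animal 1 was at -0.01 and animal 3 at 0. The other results were not run without the block. Under other scalings 59.1 to 63.6% of the tested divergent windows had positive log2 fold changes.

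The level against other gene starts turned from -0.025 to 0.083 against starts with nothing labelled within 3 windows upstream, and to 0.22 for starts of pairs with 1 window between against those same starts, where the choice of windows alone differs. By mean CPM these were -0.14 and -0.09. Without LOC genes the level by the median was -0.21, lower in 5 of 6 libraries. The plus start against the minus start turned from 0.23 to -0.13 in pairs with 1 window between. The window between (7 alternatives) and the dip against the flanks (10 alternatives) kept their direction in each. With a median of 3 to 10 reads per divergent window, differences of 1 read move the medians, and only the well recovered windows could be tested by age.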
